A study of Mus musculus with 4 samples.

Results

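The immune checkpoint genes outside the CD28 family, together with the adenosine-making ectoenzymes, were followed in RNA sequencing of mouse T helper 17 (Th17) cells, the CD4 T cells that secrete interleukin 17. The set was chosen by gene symbol and held 10 genes of the 50600 listed: Lag3, Havcr2, Tigit, Cd226, Cd96, Cd160, Vsir, Entpd1, Nt5e and Cd200. All 10 were found, and all 10 passed the filter of at least 10 counts summed over the libraries. There were 4 libraries, biological replicates 1 to 4 of 1 group, and the cells were primary C57BL/6NJ cells. A time of 72 hr stands in the header of each file. The linked protocol is one of in vitro differentiation from CD4 T cells, the labels give no sex, age, treatment or genetic change, and there was no treated or control arm. The 4 biosamples carry 1 donor identifier, and whether they were taken from separate animals is not stated. Every p-value here therefore speaks of the spread among these 4 samples, which may be technical. With no second condition, the comparisons the design allows are of levels between genes and of each library with the other 3.

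Co-inhibitory receptors on T cells bind ligands on neighbouring cells and dampen signalling from the T cell receptor. LAG3 binds MHC class II, TIM3 (encoded by Havcr2) binds galectin-9 and CEACAM1, and TIGIT competes with the activating receptor CD226 and with CD96 for the ligand PVR. CD160 binds HVEM, VISTA (encoded by Vsir) binds PSGL-1 at acidic pH, and CD200 on lymphocytes is the ligand of the inhibitory receptor CD200R on myeloid cells. The ectoenzymes work in sequence: CD39 (encoded by Entpd1) breaks extracellular ATP down to AMP, and CD73 (encoded by Nt5e) turns AMP into adenosine, which raises cyclic AMP in T cells through the receptor encoded by Adora2a.

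Total counts per library ranged from 33123029 to 37746767, so that a gene with 0 counts had at most 0.0795 to 0.0906 CPM (counts scaled to library total) at a floor of 3 counts. Replicate 2 stood apart from the others: a chi-square comparison of counts gave 44.6 to 49.4 per degree of freedom for its pairs and 4.44 to 6.61 among replicates 1, 3 and 4. The summed level of the 9 T cell markers was 2963 TPM (length-scaled transcript abundance) in replicate 2, against 3105 to 3226 TPM in the others. For 8 Th17 genes the sum was 1490 TPM in replicate 2, against 5512 to 6268 TPM in the others. The median log2 change of the 8 was -0.76, against -0.01 over all genes tested, and Il22, Il21 and Il1r1 did not pass the test. Most of the sum was Il17a, with 505 TPM there, against 2155 to 2543 TPM, and Il17f, with 578 TPM, against 2619 to 2908 TPM. Dendritic cell markers summed to 13.6 TPM in replicate 2, against 2.46 to 2.88 TPM. Of these 7 markers, Flt3 held 11.5 TPM there, and Siglech, Clec9a and Cd209a had 0 counts in every library. The other 7 lists of markers of other cell types each summed to at most 51.0 TPM in a library, of which Cd8b1 held 48.0 TPM, with at most 3 counts of Cd8a. The part of these markers in the results below was not tested. In bulk RNA, fewer cells expressing a gene and less RNA per cell cannot be told apart.

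The 10 genes spanned a wide range of levels. Cd200 had the highest mean, 586.7 ± 21.1 TPM (SD, n = 4), and Cd160 the lowest, 0.427 ± 0.199 TPM. Between them, in falling order, came Tigit at 271.2 ± 45.7 TPM, Vsir at 142.8 ± 7.41 TPM, Cd226 at 69.4 ± 13.96 TPM, Lag3 at 41.0 ± 10.4 TPM and Cd96 at 21.2 ± 2.77 TPM. The remaining 3 were low: Nt5e had 2.65 ± 1.28 TPM, Entpd1 2.18 ± 0.261 TPM and Havcr2 0.978 ± 0.331 TPM. Cd200 alone made up 49.3% to 54.6% of the summed level of the set in a library, and Cd200, Tigit and Vsir together 86.9% to 89.4%. Among 21764 protein-coding genes, Cd200 ranked 222, Tigit 630 and Vsir 1408, whereas Havcr2 ranked 11224 and Cd160 12024.

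**Figure D1:**
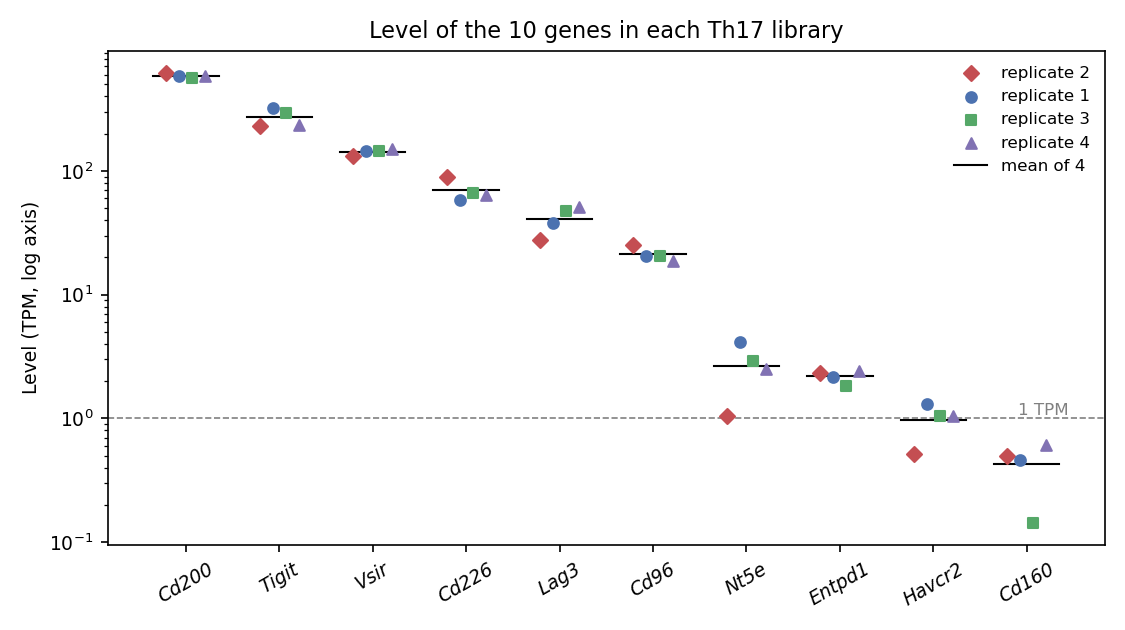
Level of each of the 10 genes in each of the 4 Th17 libraries (y axis, TPM, log scale), with a black bar at the mean and a dashed line at 1 TPM. Cd200, Tigit and Vsir lie above 100 TPM in every library, and Cd160 lies below 1 TPM in every library.

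Tested against 1 TPM, 8 of the 10 genes were above it at an adjusted p under 0.05, beside 70.6% of all 17337 genes tested, and 1 was below it, beside 16.4% of all genes (edgeR quasi-likelihood test). The gene below was Cd160, at a log2 level of -1.23 ± 0.39 (SE, adjusted p = 0.0203), and without replicate 1 its adjusted p was 0.0605. Havcr2 was at -0.04 ± 0.25 on the same scale (adjusted p = 0.896), so its level could not be told from 1 TPM. Without replicate 2 the count above 1 TPM was also 8.

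Each gene was also set against its neighbour in the order of means, within each library. In 8 of the 9 neighbouring pairs the higher gene was higher in 4 of 4 libraries and by more than the SD of its log2 ratio. An exact two-sided sign-flip test gave p = 0.13 for these (adjusted p = 0.141 over 9 pairs), the smallest p that 4 libraries allow. The exception was Nt5e and Entpd1, whose ratio changed direction between libraries. The place of Cd226 above Lag3 rests on the gene length used: with the length of the longest protein-coding transcript the mean log2 ratio was -0.23 instead of 0.78. Tigit was above Vsir per length at a mean log2 ratio of 0.91, but below it in counts not divided by length, at -1.47, since its counted exons span 963 bases and those of Vsir 5014.

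Replicate 2 was compared with the other 3 libraries. Of the 10 genes, 3 were higher there than in replicates 1, 3 and 4 (Cd226, Cd96 and Cd200), beside 11.7% of all genes tested, and 2 were lower (Lag3 and Nt5e), beside 10.9%. The median log2 change of the 10 was 0.03, against -0.01 over all genes tested. For 8 of the 10 genes the TPM of replicate 2 lay outside the range of the other 3 libraries, beside 71.4% of all genes tested; Entpd1 and Cd160 were the exceptions. Each such test compares 1 library with 3 and takes the spread of the lone library to be that of the rest. The same comparisons for replicates 1, 3 and 4 called 0 genes each with edgeR (0% of those tested), with 166, 257 and 128 genes at an unadjusted p under 0.05, and DESeq2 called 2, 15 and 3 genes. With replicate 2 left out, the edgeR comparisons called 68, 108 and 9 genes. Of the 10 genes, only Cd160 in replicate 3 had an unadjusted p under 0.05 in those comparisons, at 0.0494.

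**Figure D2:**
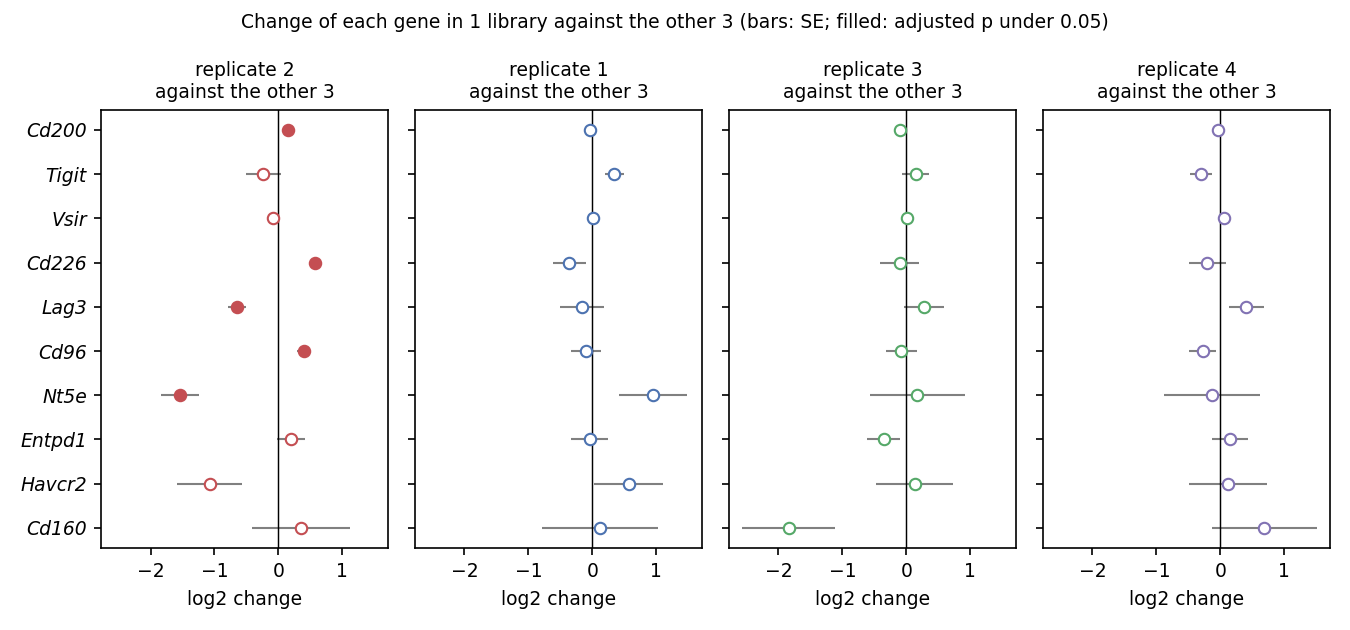
Log2 change of each of the 10 genes (rows) in 1 library against the other 3 (x axis; points, with bars for the SE), in a panel for each library. Filled points have an adjusted p under 0.05; all 5 of them are in the panel of replicate 2, with Nt5e at -1.54, Lag3 at -0.65, Cd226 at 0.58, Cd96 at 0.40 and Cd200 at 0.15.

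Of the 5 genes that changed in replicate 2, the promoters of 3 could be shown from the RefSeq table of GRCm38.p6, the assembly of the mm10 build, which held 8 of the 10 genes; Lag3 and Cd226 are not shown. They are given because 1 of these genes fell and the other 2 rose in the same library. Each runs from 250 bases before the RefSeq start site to 50 bases after it, 5′ to 3′ on the strand of the gene, with motif matches in capitals. Nt5e is at chr9:88327359-88327658 on the plus strand, Cd96 at chr16:46120199-46120498 on the minus strand and Cd200 at chr16:45409004-45409303 on the minus strand.
Nt5e: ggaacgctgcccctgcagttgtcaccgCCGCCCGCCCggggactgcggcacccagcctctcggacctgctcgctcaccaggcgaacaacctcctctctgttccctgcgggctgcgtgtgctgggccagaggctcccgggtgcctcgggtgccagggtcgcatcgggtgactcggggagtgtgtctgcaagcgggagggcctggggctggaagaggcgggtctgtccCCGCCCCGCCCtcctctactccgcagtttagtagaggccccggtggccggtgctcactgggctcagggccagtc
Cd96: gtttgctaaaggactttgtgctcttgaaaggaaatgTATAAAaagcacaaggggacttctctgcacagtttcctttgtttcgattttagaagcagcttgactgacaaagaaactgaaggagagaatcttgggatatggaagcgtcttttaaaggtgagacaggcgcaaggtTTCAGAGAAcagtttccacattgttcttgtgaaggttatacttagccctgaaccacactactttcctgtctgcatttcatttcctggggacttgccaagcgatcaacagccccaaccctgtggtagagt
Cd200: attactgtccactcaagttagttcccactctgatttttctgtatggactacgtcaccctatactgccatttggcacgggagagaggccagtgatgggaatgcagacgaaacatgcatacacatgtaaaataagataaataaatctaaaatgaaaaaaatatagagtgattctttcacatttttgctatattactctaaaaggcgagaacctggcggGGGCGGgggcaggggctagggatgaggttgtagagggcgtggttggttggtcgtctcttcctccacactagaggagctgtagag
The GC content of the Nt5e window was 71%, that of Cd96 43.7% and that of Cd200 45%, beside a median of 52.7% over 32851 promoters. Nt5e had 23 CpG dinucleotides, more than 78.5% of all promoters. In the annotation used for counting, Nt5e begins at base 88327197, upstream of this window, so its RefSeq start site lies inside the counted gene. Both strands were searched for 7 motifs. The AP-1 letters TGANTCA were in 7.81% of all promoters and the STAT letters TTCNNNGAA in 8.30%. A ROR core site, AGGTCA, was in 16.3%, and the TCF/LEF letters TCAAAG in 16%. The T-box letters GGTGTGA were in 3.98%, the SP1 letters GGGCGG in 35.7% and the TATA letters TATAAA in 13.6%. Nt5e held 4 SP1 matches on the minus strand, in overlapping pairs that begin at -223, -219, -24 and -19 from the start site. Cd96 held 1 STAT match at -79 and 1 TATA match at -214, and Cd200 held 1 SP1 match at -34. The other 4 motifs were not in these windows, and a match describes letters, not a site that is bound.

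Lag3 (ENSMUSG00000030124.2, chromosome 6, 124904361 to 124911705) was lower in replicate 2. It had 27.8 TPM there, against 37.8, 47.5 and 50.9 TPM in replicates 1, 3 and 4. Replicate 2 lay below all the others, and replicates 3 and 4 were the highest. The log2 change was -0.65 ± 0.14 (SE, 0.638-fold, adjusted p = 0.00620). Replicate 1 was also lower than replicates 3 and 4 once replicate 2 was left out of the fit, by -0.37 on the log2 scale (adjusted p = 0.0427). Cd4, the coreceptor that also binds MHC class II and whose gene lies 16.1 kb from Lag3, had 486 TPM in replicate 2, against 487 to 516 TPM in the others (adjusted p = 0.957). Lag3 thus stood at 0.0572 of the Cd4 level in replicate 2, against 0.0776 to 0.0986 in the others, a log2 ratio of -3.64 ± 0.35 over the 4 libraries (SD).

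Of the 9 ligand, sheddase and related genes listed for LAG3, 7 were tested. The median log2 change of the 7 in replicate 2 was -0.04, against -0.01 over all genes. The class II genes went in opposite directions. H2-Ab1, a class II beta chain, had 32.9 TPM in replicate 2, against 73.8 to 78.4 TPM in the others (log2 change -1.14 ± 0.10, adjusted p = 1.56e-08). H2-Eb1, another beta chain, had 20.9 TPM in replicate 2, against 8.60 to 10.3 TPM (1.23 ± 0.18, adjusted p = 3.10e-05). H2-Aa, the alpha chain that pairs with H2-Ab1, had only 13 counts in replicate 2 and 4 to 6 in the others. Lgals3, which encodes galectin-3, fell by 1.36 on the log2 scale, with 22.5 TPM in replicate 2, against 54.2 to 66.6 TPM. The soluble ligand gene Fgl1 and the lectin gene Clec4g had 0 counts in every library. Adam10, whose protease cuts LAG3 from the cell surface, had 83.0 TPM in replicate 2, against 98.0 to 106 TPM (log2 change -0.25 ± 0.05, adjusted p = 0.00140), and Adam17, which also cuts LAG3, had 64.5 TPM there, against 68.8 to 69.5 TPM (adjusted p = 0.624).

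Havcr2 (ENSMUSG00000020399.14, chromosome 11, 46454935 to 46481255) was near the limit of what could be measured. It had 16 counts in replicate 2, or 0.514 TPM (95% exact Poisson interval 0.293 to 0.834), against 35, 30 and 32 counts in replicates 1, 3 and 4, or 1.30, 1.05 and 1.05 TPM. These intervals cover counting error only; that of replicate 2 overlapped those of replicates 3 and 4, which began at 0.708 and 0.718 TPM, and not that of replicate 1, which began at 0.904 TPM. The log2 change in replicate 2 was -1.07 ± 0.51 (adjusted p = 0.152). Lag3 exceeded Havcr2 by 54.1-fold in replicate 2, against 29.1-fold to 48.5-fold in the others.

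Most of the ligand, adaptor and related genes listed for TIM3 were above the receptor gene in level, with Ceacam1 below it. Of 8 genes listed, 6 were tested and 5 were above 1 TPM, beside 70.6% of all genes tested. The median log2 change of the 6 in replicate 2 was 0.09, against -0.01 over all genes tested. Lgals9, which encodes galectin-9, had 184.9 TPM in replicate 2, against 146.3 to 152.7 TPM (log2 change 0.37 ± 0.05, adjusted p = 3.35e-06). Bag6 and Fyn, whose products bind the tail of TIM3, had means of 169.5 and 175.7 TPM and did not pass the test, while Ceacam1 averaged 0.707 TPM. Timd2, a gene of the same family 187.7 kb from Havcr2, was the abundant family member: it had 92.8 TPM in replicate 2, against 110.0 to 121.1 TPM (log2 change -0.25 ± 0.05, adjusted p = 0.00148). Timd4 had 0 counts, and Havcr1 had at most 5 in a library.

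Tigit, Cd226 and Cd96 share the ligand PVR; Cd226 and Cd96 rose in replicate 2, and Tigit did not pass the test. Cd226 (ENSMUSG00000034028.15, chromosome 18) had 89.7 TPM in replicate 2, against 58.0, 66.5 and 63.5 TPM in replicates 1, 3 and 4. Replicate 2 was above the other 3, which lay close together, and the log2 change was 0.58 ± 0.08 (1.49-fold, adjusted p = 1.33e-05). Cd96 (ENSMUSG00000022657.9, chromosome 16, 46035657 to 46120251) had 25.1 TPM in replicate 2, against 20.3, 20.6 and 18.6 TPM. Replicate 2 again lay above the others, and it lay outside their range for 71.4% of all genes tested. The log2 change of Cd96 was 0.40 ± 0.11 (1.32-fold), which did not pass the test with DESeq2.

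Tigit (ENSMUSG00000071552.4, chromosome 16, 43648861 to 43664184) split the libraries in another way. It had 231.8 TPM in replicate 2 and 234.4 TPM in replicate 4, against 324.5 TPM in replicate 1 and 294.2 TPM in replicate 3. Replicate 2 was therefore next to replicate 4, and its log2 change of -0.23 ± 0.27 did not pass the test (adjusted p = 0.678). With replicate 4 left out, the change of replicate 2 was -0.36 (adjusted p = 9.78e-06), and with replicate 2 left out, that of replicate 4 was -0.41 (adjusted p = 7.52e-05).

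The ratio of Tigit to Cd226 was 2.59 in replicate 2, against 5.60, 4.42 and 3.69 in replicates 1, 3 and 4. Tigit was thus above its activating counterpart in 4 of 4 libraries, by 1.97 ± 0.47 on the log2 scale (SD, exact sign-flip p = 0.13, adjusted p = 0.15 over 6 ratios). The size rests on the lengths used, at 2.96 with the longest protein-coding transcripts, under which Cd226 averaged 26.6 TPM, and 0.68 in counts not divided by length. Tigit over Cd96 was 9.23 in replicate 2, against 12.6 to 15.95 in the others. Cd96 over Cd226 varied least, at 0.280 in replicate 2, against 0.293 to 0.351, with both genes higher in that library, and its log2 mean of -1.70 was -0.77 with the longest protein-coding transcripts.

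**Figure D3:**
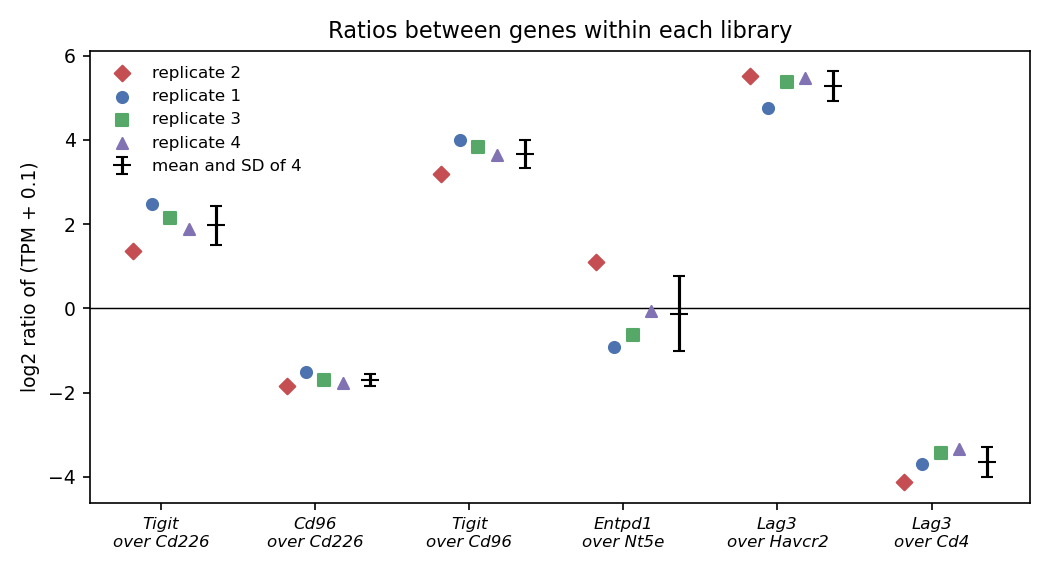
Log2 ratio between 2 genes within each library (y axis, from TPM + 0.1), with the mean and SD over the 4 libraries. Replicate 2 has the lowest ratio of Tigit to Cd226 and is the only library in which Entpd1 exceeds Nt5e.

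The ligands of these receptors are nectins and nectin-like molecules. The list for this network also held the receptor genes Crtam and Pvrig, so its counts and median are not of ligands alone. Of 9 genes listed, 8 were tested and 4 were above 1 TPM (edgeR quasi-likelihood test), beside 70.6% of all genes tested. The median log2 change of the 8 in replicate 2 was -0.11, against -0.01 over all genes tested. Pvr had 33.4 TPM in replicate 2, against 36.8 to 41.1 TPM, and did not pass the test (adjusted p = 0.108), while Nectin2, the ligand of TIGIT and CD226 alongside PVR, averaged 3.07 TPM. The largest falls were in side branches of the network. Crtam, a receptor related to CD226 and CD96, had 4.48 TPM in replicate 2, against 21.1 to 26.1 TPM (log2 change -2.30 ± 0.13, adjusted p = 2.93e-10), and Cadm1, its ligand, fell by 3.05 on the same scale, with 13 counts there, against 86 to 115 counts. Nectin3, a binding partner of TIGIT with lower affinity than PVR, had 1.82 TPM, against 7.32 to 8.34 TPM (log2 change -2.03 ± 0.12, adjusted p = 1.01e-10). Pvrig, another receptor of the family, had 1 count in all.

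Cd160 (ENSMUSG00000038304.14, chromosome 3, 96798763 to 96829351) was the lowest of the set. It had 15 counts in replicate 2, or 0.496 TPM, against 12, 4 and 18 counts in replicates 1, 3 and 4, or 0.459, 0.144 and 0.608 TPM. Replicate 3 was the low library, with an interval of 0.0393 to 0.369 TPM that overlapped the others, and no comparison passed the test. Of its exon bases, 68 lie opposite Pdzk1 on the other strand, which the counting kept apart by strand. All 5 genes listed for the HVEM network that CD160 belongs to were above 1 TPM, beside 70.6% of all genes. The median log2 change of the 5 in replicate 2 was 0.13, against -0.01 over all genes tested. The list held Cd5, an inhibitory surface protein of T cells that is not an established receptor or ligand of HVEM. Cd5 had the highest mean, at 1432 TPM, and a log2 change of 0.22 ± 0.04 in replicate 2. Next came Btla, like CD160 an inhibitory receptor for HVEM, at 320.4 TPM. Btla had 331.8 TPM in replicate 2, against 310.5 to 321.9 TPM (log2 change 0.13 ± 0.05, adjusted p = 0.0517). Lta, another ligand gene of HVEM, averaged 162.6 TPM and did not pass the test (adjusted p = 0.224). Tnfrsf14, which encodes HVEM, averaged 39.1 TPM, and its ligand gene Tnfsf14 fell by 0.30 on the log2 scale in replicate 2 (adjusted p = 0.0213).

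Vsir (ENSMUSG00000020101.14, chromosome 10, 60346851 to 60372684) varied little. Its level was 132.2 TPM in replicate 2, against 144.2, 145.0 and 149.6 TPM in replicates 1, 3 and 4. Although replicate 2 was the lowest, the log2 change was only -0.08 ± 0.05 (adjusted p = 0.239). Selplg, which encodes PSGL-1, had 142.9 TPM in replicate 2, against 125.5 to 138.6 TPM (log2 change 0.18 ± 0.05, adjusted p = 0.0145). Of the other genes listed, Igsf11 had 8 to 15 counts in a library and Vsig8 had 1 to 2. Hspg2, the perlecan gene, averaged 1.80 TPM, and its log2 change of 0.47 ± 0.18 in replicate 2 did not pass the test.

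Cd200 (ENSMUSG00000022661.14, chromosome 16, 45382135 to 45409053) was the highest and steadiest of the set, with a coefficient of variation of 3.60%. Replicate 2 had 614.8 TPM, against 582.6, 563.6 and 585.8 TPM in replicates 1, 3 and 4. Replicate 2 lay outside the range of the others, as it did for 71.4% of all genes tested. The log2 change was 0.15 ± 0.04 (1.11-fold). The 4 receptor genes were low by comparison. Cd200r3, at a mean of 0.714 TPM, changed by 0.40 ± 0.36 on the log2 scale in replicate 2. Cd200r2, with 8 counts there and 2 to 4 in the others, changed by 1.47 ± 1.13. For both the SE was close to the size of the change, so whether they rose is not settled. Cd200r1, the inhibitory receptor, had 13.8 TPM in replicate 2, against 6.45 to 8.43 TPM (log2 change 1.00 ± 0.17, adjusted p = 1.90e-04). Cd200r4, an activating relative, had 50 counts in replicate 2, against 7 to 23, a log2 change of 1.75 ± 0.52 (adjusted p = 0.0183; DESeq2 0.113). The receptor genes resemble each other in sequence, and how their reads were divided is uncertain. Flt3, of the dendritic cell list, also rose in replicate 2, by 3.58 ± 0.17 on the log2 scale. Of the other tested genes of that list, Zbtb46, Xcr1 and Itgax changed by 0.41 ± 0.21, 0.23 ± 0.91 and -1.08 ± 1.07. Xcr1 had only 6 to 9 counts in a library and Itgax 4 to 12, so whether these 2 moved with Flt3 cannot be told.

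Cd200, Tigit and Cd96 lie on chromosome 16 with several of their partners. Between Tigit and Nectin3, over 2849.7 kb, there were 36 protein-coding genes, among them Btla and the 4 CD200 receptor genes. Cd200 lay 129.2 kb from Btla, 626.6 kb from Cd96 and 1718 kb from Tigit. Levels along the stretch were not uniform: 30 of the 36 genes had at least 10 counts in all, and 5 were above 100 TPM, of which Cd200, Btla and Tigit were 3. Neighbours in this stretch did not share 1 direction in replicate 2, as Cd96 rose while Nectin3, the next of the named genes, fell.

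**Figure D4:**
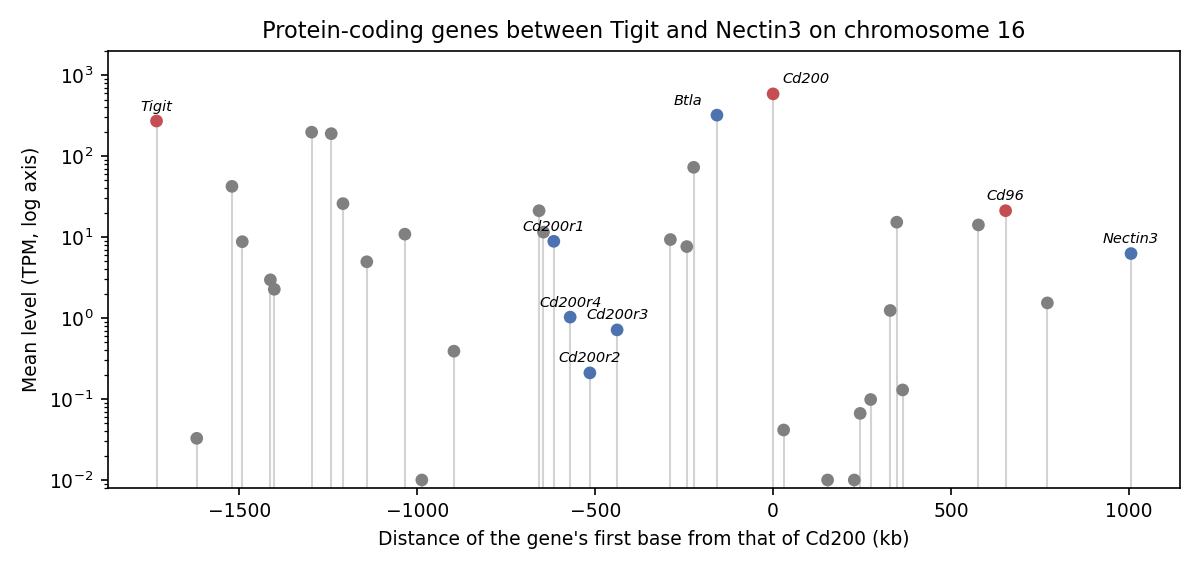
Mean level over 4 libraries (y axis, TPM, log scale; values under 0.01 drawn at 0.01) of the 36 protein-coding genes from Tigit to Nectin3, by the distance of the gene's first base from that of Cd200 (x axis, kb). The 3 genes of the set are red and their partner genes blue; Cd200 has the highest mean of the 36, and the CD200 receptor genes are all below 10 TPM.

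Nt5e (ENSMUSG00000032420.8, chromosome 9, 88327197 to 88372092) had the largest change of the set in replicate 2. It had 1.05 TPM in replicate 2, against 4.15, 2.90 and 2.49 TPM in replicates 1, 3 and 4. In counts this was 103 in replicate 2, against 354, 262 and 240. Replicate 2 lay below the others, and replicate 1 above them. The log2 change of replicate 2 was -1.54 ± 0.30 (0.344-fold, adjusted p = 0.00515), and with replicate 2 left out, replicate 1 was higher than replicates 3 and 4 by 0.63 on the log2 scale (adjusted p = 0.0289). Entpd1 (ENSMUSG00000048120.16, chromosome 19, 40612366 to 40741602), the enzyme gene one step before, had 2.35 TPM in replicate 2, against 2.15, 1.82 and 2.40 TPM. Its libraries overlapped, at a log2 change of 0.20 ± 0.22 (adjusted p = 0.575). The ratio of Entpd1 to Nt5e was therefore 2.24 in replicate 2, against 0.518, 0.630 and 0.964 in the others, and its log2 mean of -0.13 ± 0.89 was smaller than its SD (exact sign-flip p = 0.875); with the longest protein-coding transcripts it was -0.81.

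Genes were also ranked by how closely their levels followed Nt5e over the 4 libraries, by the largest difference between log2 values centred on each gene's mean, among 9513 protein-coding genes of at least 5 TPM. The 5 most alike were Sdcbp2, Irs2, Pxdc1, Ccl20 and Nucb2, with largest differences of 0.15 to 0.25. Sdcbp2 had 29.3 TPM in replicate 2, against 92.6, 65.4 and 60.3 TPM in replicates 1, 3 and 4. Ccl20, which encodes the chemokine that binds CCR6, had 6.45 TPM in replicate 2, against 19.2, 15.2 and 15.9 TPM. This likeness is a description over 4 libraries that share replicate 2 as the low one.

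The list for release and breakdown of nucleotides held 15 other genes, not all of them for extracellular enzymes. What a change in any of them means for extracellular nucleotides was not tested. Of the 15, 12 were tested and 8 were above 1 TPM, beside 70.6% of all genes tested. The median log2 change of the 12 in replicate 2 was -0.29, against -0.01 over all genes tested. Entpd6 changed by 0.28 ± 0.09 on the log2 scale in replicate 2, a change that did not pass the test with DESeq2. Slc17a9, which loads ATP into vesicles, and Panx1, the pannexin channel that releases ATP, had means of 51.5 and 27.1 TPM and did not pass the test. Cd38, which consumes NAD on an alternative route to adenosine, had 1.08 TPM in replicate 2, against 4.84 to 5.92 TPM (log2 change -2.21 ± 0.24, adjusted p = 5.29e-07). Enpp2, which encodes autotaxin, had 0.830 TPM there, against 5.52 to 7.89 TPM (-2.91 ± 0.27, adjusted p = 8.02e-08). Entpd3, Entpd4 and Entpd8 had at most 1 count in all, and a gene with a near-identical copy, as Entpd4 has, can lose its reads in counting.

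Among adenosine receptor genes, Adora2a and Adora2b averaged 183.6 and 20.3 TPM, above Nt5e and Entpd1 at 2.65 and 2.18 TPM. Adora1 and Adora3 were below both enzyme genes. Adora2a, the main adenosine receptor gene of T cells, had 223.3 TPM in replicate 2, against 175.9, 163.7 and 171.3 TPM in replicates 1, 3 and 4. Replicate 2 was above all others, at a log2 change of 0.45 ± 0.05 (adjusted p = 6.39e-07), opposite in sign to that of Nt5e. Adora2b, the receptor of lower affinity, had 17.1 TPM in replicate 2, against 18.3 to 23.5 TPM (adjusted p = 0.226), and Adora1 and Adora3 had at most 6 counts in a library. Among receptors for ATP, P2rx7 rose by 0.70 in replicate 2 on the log2 scale, with 11.3 TPM there, against 6.24 to 7.75 TPM. P2rx1 fell, with 3 counts there, against 18 to 23 counts (adjusted p = 0.0219). P2ry10 and P2ry14 were also on this list, although their products are not receptors for ATP or adenosine. P2ry10 averaged 12.6 TPM and did not pass the test, with a log2 change of -0.34 ± 0.14. The median log2 change of the 7 tested genes on the list was -0.11, against -0.01 over all genes tested.

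The list for adenosine clearance also held transporters and Ahcy, whose reaction yields adenosine. Its 8 matched genes were all above 1 TPM, beside 70.6% of all genes. The median log2 change of the 8 in replicate 2 was -0.08, against -0.01 over all genes tested. Ahcy, which splits S-adenosylhomocysteine into adenosine and homocysteine, had the highest mean, 171.4 TPM, and fell by 0.17 on the log2 scale (adjusted p = 0.0213; 0.0542 without replicate 1). The transporters differed in direction: Slc29a2 had 49.0 TPM in replicate 2, against 30.4 to 34.2 TPM (log2 change 0.67 ± 0.09, adjusted p = 1.30e-05), and Slc29a3 had 17.6 TPM, against 43.6 to 47.0 TPM (-1.31 ± 0.07, adjusted p = 2.61e-11). Slc29a1 had 73.7 TPM, against 84.8 to 87.2 TPM (-0.16 ± 0.05, adjusted p = 0.0177; DESeq2 0.0883). Adk, the kinase that returns adenosine to AMP, and Ada, the deaminase, averaged 105.9 and 14.7 TPM and did not pass the test.

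**Figure D5:**
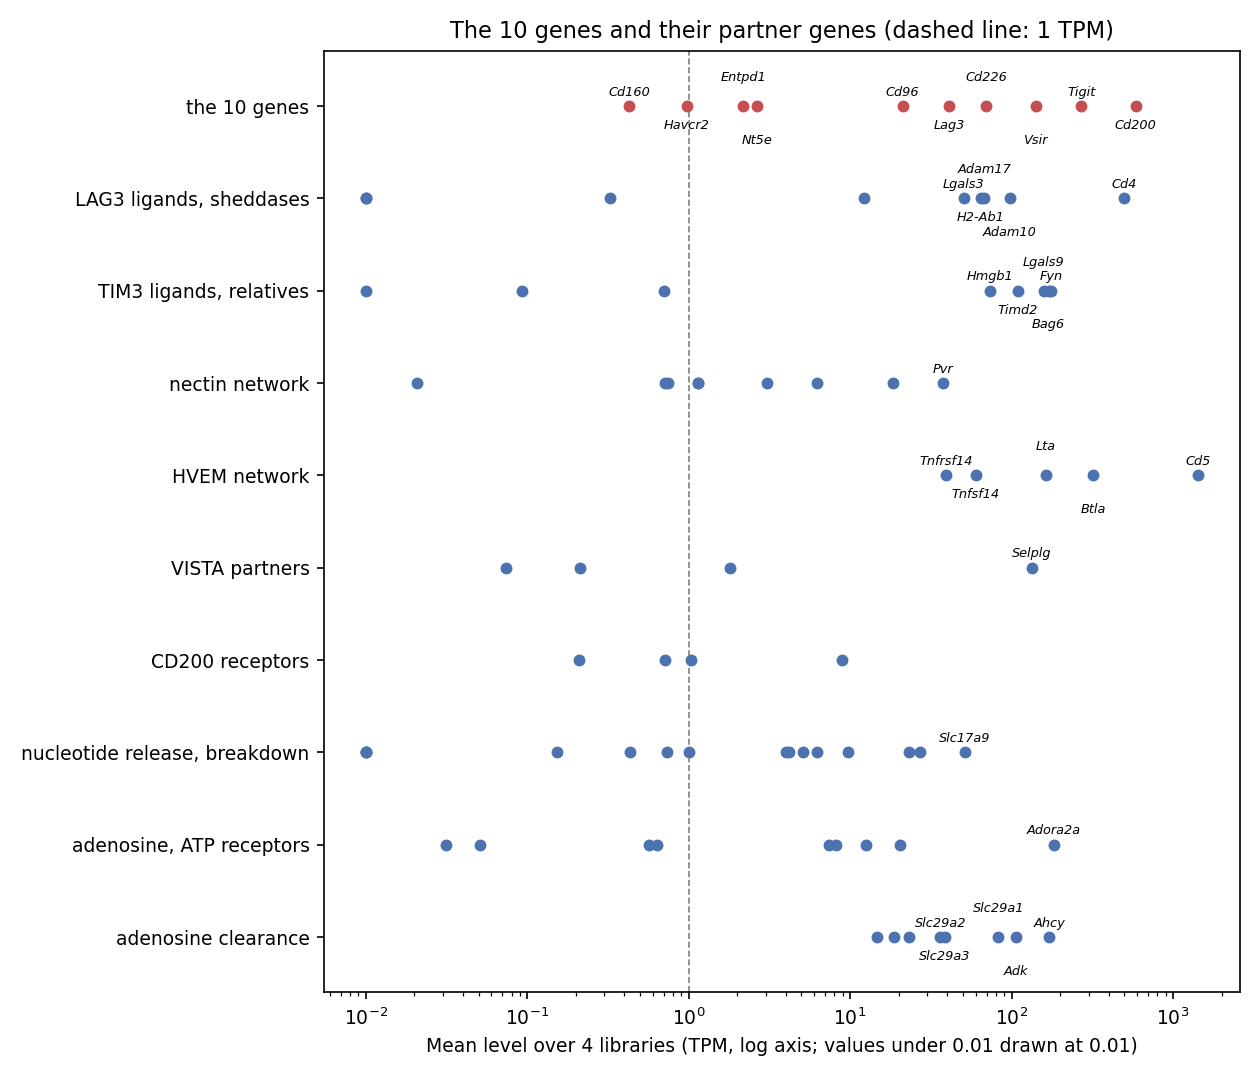
Mean level over 4 libraries (x axis, TPM, log scale; values under 0.01 drawn at 0.01) of the 10 genes and of the genes listed as their partners, 1 point per gene and 1 row per list, with a dashed line at 1 TPM. Cd5 has the highest mean among the genes listed as partners, at 1432 TPM. Adora2a is far above the other genes listed with the adenosine and ATP receptors, and Havcr2 and Cd160 are the lowest of the 10 genes.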

How the data were processed

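RNA was sequenced in 4 Th17 libraries. The labels name total RNA as the assay but link a library protocol for poly(A)+ RNA; which was used is not settled here, and the level of any RNA without a poly(A) tail depends on it. The deposited values are raw counts per gene, made by the authors with featureCounts 1.4.6-p4 on reverse-stranded read pairs (strand option 2) against GENCODE M13, per the file headers, with no normalization and no pooling. Per the labels the genome was mm10. The aligner is not given in the sources used here. Symbols came from GENCODE vM21 by identifier; 50376 of 50600 matched, and 167 of 168 list genes were found.

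TPM was computed here as count over summed exon length, with equal totals in all libraries. Genes with at least 10 summed counts (17337) were tested in R 4.3.3 with edgeR 4.0.16 quasi-likelihood fits with a robust prior: the level against 1 TPM, and each replicate against the other 3 with TMM factors. P-values were adjusted by Benjamini-Hochberg over all genes tested, with a threshold of 0.05. Ratios used log2(TPM + 0.1) and an exact two-sided sign-flip test. DESeq2 1.42.0, limma 3.58.1, other scalings, filters and lengths, and leaving out each library were alternatives. The level test and the replicate test were tested on simulated data. Before averaging, libraries were compared in pairs, and none was identical to another or within sampling noise. Each was counted as 1 sample, although this comparison cannot tell whether the libraries came from separate animals. A gene length error changes levels between genes but not changes between libraries.

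The 10 genes and the 20 lists were chosen with earlier results of these data known. The text names all 10 genes and, from each list of partner genes, the 3 with the highest mean, the 2 called genes with the largest change in replicate 2, and genes at or near 0; of the marker lists it names only a few of the genes so chosen. Genes that fall outside this rule (H2-Ab1, H2-Aa, Ceacam1, Havcr1, Nectin2, Tnfrsf14, Ada, the Th17 genes that did not pass the test and others) were named after their values were seen. Shown promoters are those of the called genes with an entry, outside chromosome 18.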

Additional observations from a re-analysis of the deposited data

Results flagged for a closer look

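In 7 of 53 genes tested for a sample far from the others, the gap to the nearest library relative to the whole range exceeded Dixon's 95% critical value; chance flags about 1 in 20 such groups. The 53 genes included the 10 checkpoint and ectoenzyme genes, of which 0 were flagged, and partner genes named partly for their change in replicate 2, so neither the number flagged nor the library that stood far off is evidence of its own. Replicate 2 was the far sample in all 7. It was the low one for 3 partner genes. Adam17 had 64.5 TPM in replicate 2, against 68.8 to 69.5 TPM in the others. Nectin3 had 1.82 TPM there, against 7.32 to 8.34 TPM. Slc29a3 had 17.6 TPM, against 43.6 to 47.0 TPM. Replicate 2 was the high sample for the other 4. H2-Eb1 had 20.9 TPM there, against 8.60 to 10.3 TPM. Lgals9 had 184.9 TPM, against 146.3 to 152.7 TPM. Tcf7, which encodes the transcription factor TCF1 of naive and memory T cells, had 986.7 TPM, against 557.2 to 584.7 TPM. Eomes, a T-box factor, had 61.8 TPM, against 6.53 to 8.65 TPM.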

How the results depend on the processing

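Of 1498 alternative values, 1447 counted as unchanged, and for the 10 genes 449 of 455 did. Unchanged meant the same side of the threshold for tested values, the same sign for ratios, and within 1.5 times for counts. Many of the 455 are comparisons of replicates 1, 3 and 4 that lay far from the threshold, so their staying unchanged says little. Among the 1447, 26 values that did not pass the test turned sign, 18 of them of the 10 genes, none of those beyond 0.31 in absolute log2 size under the alternative. The other 6 values that turned sign were ratios. Leaving out each library in turn, log2 Entpd1 over Nt5e ranged from -0.54 to 0.13, and Nt5e over Entpd1 from -0.13 to 0.54. Tigit over Vsir was -1.47 without division by length, and Cd226 over Lag3 was -0.23 with the longest protein-coding transcript, an alternative chosen after seeing the data. The count of genes below 1 TPM among the 10 was 0 with a filter of 100 summed counts, which Cd160 does not pass, and 0 to 1 leaving out a library. Genes called in replicate 1 numbered 2 with DESeq2 and 0 to 68 leaving out a library. In replicate 3 they numbered 15 with DESeq2, 17 with no filter and 0 to 108 leaving out a library, and in replicate 4 they numbered 3 and 0 to 9. Without replicate 2, 1 of the 10 was higher in replicate 1 and 1 lower (0 to 1 leaving out a library), and 1 lower in replicate 4 (0 to 1). The cause was not tested. No paired analysis was possible because there is only 1 group. Counts of 4 to 35 limit what can be said of Cd160 and Havcr2.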

Other observations

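Of 18 transcription factor genes listed as regulators of checkpoint receptors, 17 were above 1 TPM, beside 70.6% of all genes tested, and 4 rose and 6 fell in replicate 2, beside 11.7% and 10.9%, with a median log2 change of -0.10 against -0.01 over all genes tested. The T-box factors moved in opposite directions: Eomes rose by 3.10 ± 0.11 on the log2 scale (adjusted p = 2.18e-13), and Tbx21, which encodes T-bet, had 12.7 TPM in replicate 2, against 34.6 to 39.5 TPM in the others (-1.51 ± 0.12, adjusted p = 4.53e-09). Tcf7 rose by 0.85 ± 0.04 (adjusted p = 6.27e-12). Tox and Tox2 fell by 0.48 and 1.42 on that scale. Of the NR4A genes, Nr4a1 rose by 0.43, Nr4a2 fell by 0.70 and Nr4a3 changed by -0.12 ± 0.21 (adjusted p = 0.778). Batf, an AP-1 family factor of Th17 cells, had 908.0 TPM in replicate 2, against 946.8 to 986.9 TPM (adjusted p = 0.681). Prdm1, which encodes Blimp-1, had 10 to 16 counts in a library. Tox, Tox2, Nr4a2, Nr4a3 and Prdm1 were named after their values were seen.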
